A study of Homo sapiens with 36 samples.

Results

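The miRNA hsa-miR-31-5p was followed through small RNA sequencing of human cells with extra chromosomes. It was selected by its name, 1 of 509 mature miRNA names in the 7 deposited tables, after its earlier results in these data were known, so its levels are given as a description. The 36 small RNA libraries fall into 12 groups of 3, from HCT116, a near-diploid colon carcinoma line, and from RPE1, a retinal pigment epithelial line immortalised with hTERT. An asterisk marks cells that carry the histone H2B tagged with GFP, and a line's name gives the gained chromosome, its copy number and, after c, the clone. HCT116 5/4 has 4 copies of chromosome 5 and was set against HCT116. HCT116 18/3 c2, HCT116* 3/3 c11 and HCT116* 8/3 c7 have 3 copies of chromosomes 18, 3 and 8, and all 3 were set against the same 3 HCT116* libraries. HCT116 18/3 c2 itself has no H2B-GFP by its labels. Per the study's list of cell lines it was made from HCT116, so its HCT116* control is not its direct parent. RPE1 5/3 12/3 has 3 copies each of chromosomes 5 and 12 and was set against RPE1. RPE1* 7/3 and RPE1* 21/3 have 3 copies of chromosomes 7 and 21 and were set against RPE1* libraries 11 to 13 and RPE1* libraries 1 to 3. Per the study's methods RPE1* 7/3 also gained chromosomes 9 and 12 spontaneously, and MIR31 lies on chromosome 9. The chromosome 12 gain of RPE1 5/3 12/3 was spontaneous too, while the remaining named gains in lines made by the authors came from microcell-mediated transfer of single chromosomes. The lines marked c derive from 1 cell each. HCT116 5/4 and its control came from another laboratory.

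MicroRNAs are short RNAs cut from hairpin precursors, which guide Argonaute proteins to messenger RNAs and lower their output. Pairing rests mainly on the seed near the 5′ end. The miRNA miR-31 is known as raised in many colorectal tumours, and its long noncoding host transcript MIR31HG lies beside the CDKN2A tumour suppressor locus.

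The mature sequence and its precursor are shown because every value below counts reads of the 5′ arm of 1 locus. The seed, bases 2 to 8, is in capitals in the mature sequence, and the whole mature stretch is in capitals in the hairpin.
hsa-miR-31-5p: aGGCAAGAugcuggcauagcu
MIR31 hairpin: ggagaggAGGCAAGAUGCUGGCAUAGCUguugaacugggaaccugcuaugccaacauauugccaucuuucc
The hairpin lies at chr9:21512114-21512184 on the minus strand (GRCh37, equal to the authors' hg19), and the mature miRNA at chr9:21512157-21512177. The 71 bases were read from that genome and equal the RefSeq hairpin. MIR31 lies in introns of MIR31HG (21380072 to 21559890, minus strand). Of 27 annotated MIR31HG transcripts 21 span the hairpin, and 0 exons overlap it. The nearest listed miRNA is hsa-miR-491-5p, 795927 bp away (20716104 to 20716187), listed in 5 tables at 0.259 to 1.41 ppm (parts per 1000000 of the summed means of a table). CDKN2A (21967751 to 21995300), which encodes an inhibitor of cell cycle kinases, lies 455567 bp away. Of 2370 mature names in the RefSeq table, 0 others share the seed of hsa-miR-31-5p. The 3′ arm was not among the listed names, but that is not particular to miR-31, since 333 of the 509 names end in 5p and only 12 in 3p. Places, shares and ppm below are therefore relative to tables that hold few 3′ arms.

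The value available for each table is 1 mean, in which the authors divided the read counts by size factors and averaged the 3 libraries of the line with the 3 of its control. No spread between libraries comes with it, so no level has an error or interval and no difference between groups was tested. The change of each line against its control was computed by the authors in columns that were not used here. A mean of 2 groups of equal size limits each of them, because neither group can lie above 2 times the mean. For comparison between tables the means were expressed in ppm. The summed means ran from 5556870 in the HCT116 5/4 table to 11221232 in the RPE1* 7/3 table, and the depth of single libraries is unknown from them.

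The miRNA hsa-miR-31-5p was abundant in all 7 tables, and its level differed 4.31-fold between the lowest and the highest. In the HCT116 5/4 table the authors' mean was 24602, or 4427 ppm, which was the highest share of the 7. For RPE1 5/3 12/3 it was 38499, the highest mean as listed, or 4225 ppm. Next came RPE1* 21/3 with 25952, or 3221 ppm. Then came the 3 tables that share control libraries, close to one another. Their means were 20074 for HCT116* 3/3 c11, 17193 for HCT116* 8/3 c7 and 14757 for HCT116 18/3 c2, which are 2244, 2193 and 1855 ppm. The lowest level was that of RPE1* 7/3, the line with the spontaneous gain of chromosome 9, at a mean of 11537 or 1028 ppm. Since the mean of that table joins the line with its control, the part of the gained chromosome cannot be told apart in it. Without replicate values, which neighbours in this order differ beyond their spread is unknown.

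The order also split by the handling of sequencing batches. Per the study's methods, the comparisons of HCT116 5/4, RPE1* 21/3 and RPE1 5/3 12/3 had a term for paired replicates because of batch effects in sequencing, and the 4 others had none. The 3 tables with the term had 3221 to 4427 ppm of hsa-miR-31-5p and the 4 without it 1028 to 2244 ppm. These ranges did not overlap under any of the 5 scalings. The split is not particular to hsa-miR-31-5p, since in ppm hsa-miR-16-5p had 429 to 782 with the term and 155 to 184 without it. How many miRNAs split this way was not counted. Line and sequencing batch cannot be told apart in the levels, the limits and the correlations that follow.

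**Figure D1:**
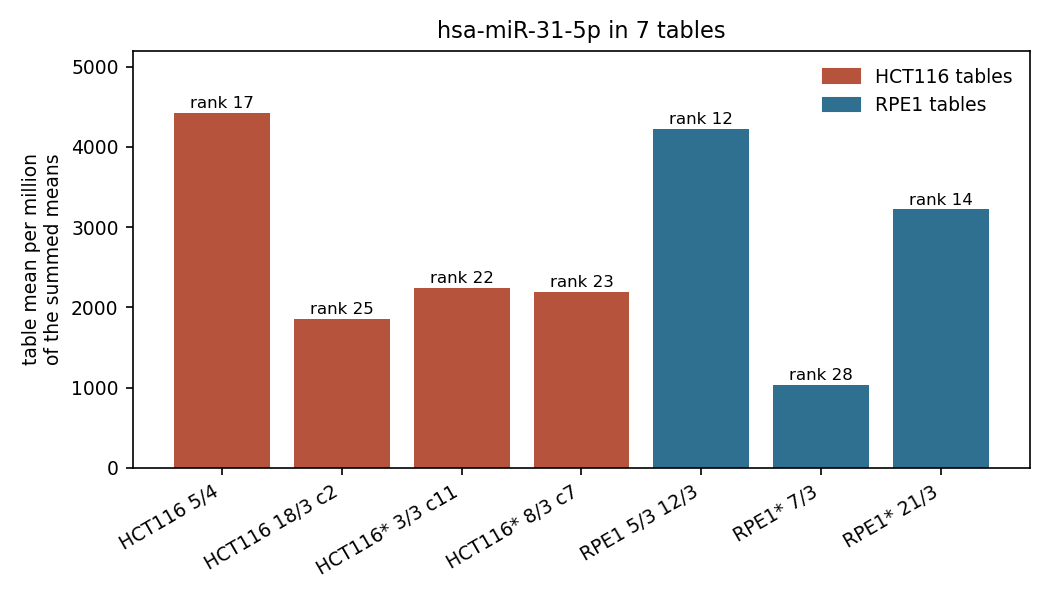
Bars give the authors' mean of hsa-miR-31-5p over the 6 libraries of each table, in ppm of the summed means, with the place of the miRNA among all miRNAs of the table. The bars run from 1028 in RPE1* 7/3 to 4427 in HCT116 5/4, and no error bars are drawn because the tables hold no replicate values.

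The limits that a mean sets on its 2 groups separate some tables. In the RPE1* 7/3 table neither the line nor its control can lie above 2056 ppm. In 5 other tables, all except HCT116 18/3 c2, the mean itself is above that value, so at least 1 of their 2 groups had more hsa-miR-31-5p than either group of the RPE1* 7/3 table on this scale. On the means as listed this holds for 3 tables (RPE1* 21/3, HCT116 5/4 and, highest, RPE1 5/3 12/3), and with median-of-ratios scaling, over the miRNAs common to all tables, for 2 (RPE1* 21/3 and RPE1 5/3 12/3). Likewise neither group of the HCT116 18/3 c2 table can lie above 3710 ppm, and 2 tables, that of HCT116 5/4 and that of RPE1 5/3 12/3, have means above that. On the means as listed only RPE1 5/3 12/3 lies above the limit of HCT116 18/3 c2 (29514), and with median-of-ratios scaling 3 tables do, those of HCT116 5/4, RPE1* 21/3 and RPE1 5/3 12/3. The RPE1* controls of the 7/3 and 21/3 tables are different libraries of 1 cell line. Their tables had 1028 and 3221 ppm, and from the means it cannot be told whether lines or controls carry that gap.

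In the 3 tables on the same HCT116* libraries the control enters each mean with the same weight. Scaled to one another over the 279 miRNAs that all 3 list, the means of hsa-miR-31-5p were 16341 for HCT116 18/3 c2, 17224 for HCT116* 8/3 c7 and 18280 for HCT116* 3/3 c11. The highest was 1.12-fold above the lowest. Among 165 miRNAs with a scaled mean of at least 100 the median of this fold was 1.21, and 74.4% of the others had a larger one. Over all 7 tables the 4.31-fold range of hsa-miR-31-5p was also below the median, 5.96 over 166 miRNAs, and 63.6% of the others had a wider range.

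By cell type, the 4 HCT116 tables ran from 1855 to 4427 ppm with a median of 2219, and the 3 RPE1 tables from 1028 to 4225 with a median of 3221. The ranges overlapped, as they did under each of the 4 other scalings. The median RPE1 table was 1.45-fold above the median HCT116 table, and 2.97-fold above it with median-of-ratios scaling. In ppm the direction turned when the tables were split by the batch term, but each ratio then rested on a single table of one cell type. HCT116 5/4 was the only HCT116 table with the term, and RPE1* 7/3 the only RPE1 table without it. The ratio of the RPE1 to the HCT116 median in ppm was 0.841 among the 3 tables with the term and 0.469 among the 4 without it. On the means as listed the ratios were 1.31 and 0.671, and with median-of-ratios scaling 1.78 and 1.10. Under that scaling RPE1* 7/3 (13742) moved from the lowest place to just above the 3 tables on the HCT116* control (11667 to 13309), while RPE1 5/3 12/3 (49316) and RPE1* 21/3 (38318) lay above all HCT116 tables, of which HCT116 5/4 was the highest at 24668. The order of the 3 RPE1 tables among themselves, 5/3 12/3 above 21/3 above 7/3, was the same under all 5 scalings, and HCT116 5/4 was above the other 3 HCT116 tables under all 5.

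**Figure D2:**
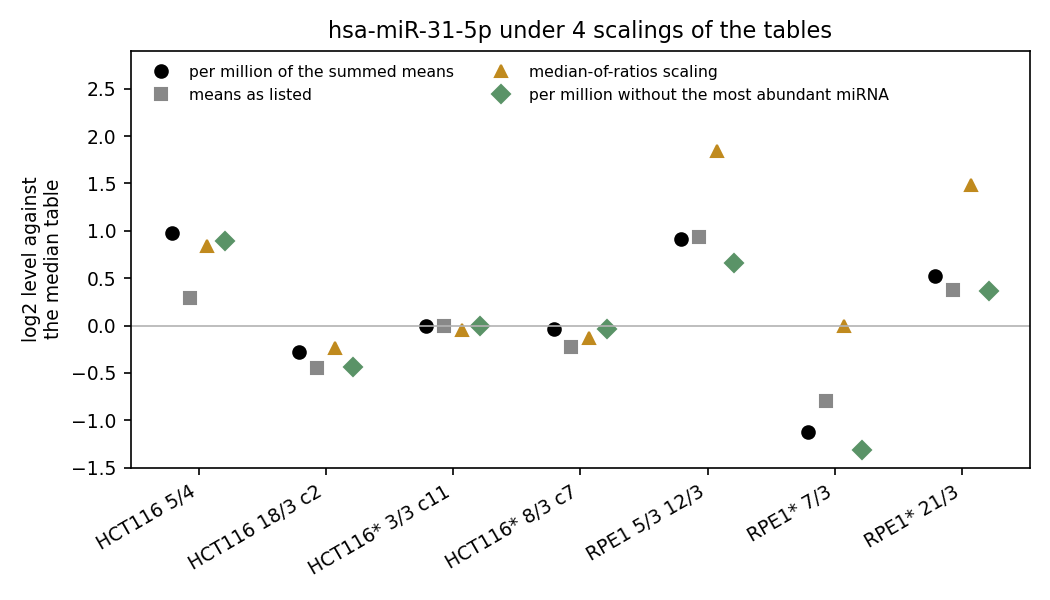
Points give the log2 level of hsa-miR-31-5p in each table against the median of the 7 tables, for 4 ways of scaling the tables to one another. RPE1* 7/3 lies at -1.13 in ppm and at 0 with median-of-ratios scaling, where it is itself the median table. HCT116* 3/3 c11 lies at -0.05 with that scaling and is the median table, so at 0, under the others.

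Within a table the order of miRNAs does not depend on scaling. A read covers a whole mature miRNA, so levels were not divided by length. In the RPE1 5/3 12/3 table hsa-miR-31-5p took place 12 of 297 listed miRNAs, between hsa-miR-99b-5p and hsa-miR-30e-5p. It took place 14 of 273 in RPE1* 21/3 and place 17 of 358 in HCT116 5/4. In the 3 tables on the HCT116* control it took places 22 to 25. In RPE1* 7/3 it took place 28 of 403, next to hsa-miR-411-5p and hsa-miR-181b-5p. Between 92.1% and 96.0% of the listed miRNAs lay below it (88.7% to 94.9% of those with a mean of at least 10), although it made up only 0.103% to 0.443% of the summed means. The most abundant miRNA was hsa-miR-21-5p in 6 tables and hsa-miR-100-5p in RPE1* 7/3. Against the median miRNA with a mean of at least 10, hsa-miR-31-5p was 60.6-fold higher in RPE1* 7/3 and 183-fold higher in HCT116 5/4, with the other tables between.

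Beside it, the sums of marker miRNAs differed between the HCT116 and the RPE1 tables. Of 9 miRNAs set as colon epithelial, 7 were listed in the HCT116 tables, where they summed to 2018 to 3155 ppm, and 4 in the RPE1 tables, at 192 to 251. Among them hsa-miR-192-5p had 281 to 586 ppm in HCT116 and 166 to 242 in RPE1. The ranges overlapped for hsa-miR-194-5p (16.3 to 139 and 3.93 to 24.5) and hsa-miR-215 (5.71 to 23.8 and 4.64 to 7.97). In the RPE1 tables hsa-miR-200b-5p, hsa-miR-200c-5p and hsa-miR-141-5p of the epithelial miR-200 family, the minor arms of their hairpins, were not listed. The pigment epithelial miRNAs hsa-miR-204-5p and hsa-miR-211-5p, 2 of 3 in that list, summed to at most 4.50 ppm in the HCT116 tables and to 380 to 1452 in the RPE1 tables. Nearly all of the RPE1 sum was hsa-miR-204-5p, with 379.5 to 1449.6 ppm. Mesenchymal miRNAs (4 of 5 listed, among them hsa-miR-143-5p and hsa-miR-145-5p) summed to 168 to 305 in the HCT116 and 9.01 to 114 in the RPE1 tables. Blood cell miRNAs (2 of 4 listed) summed to 2.21 to 38.6 in the HCT116 tables and were not listed for RPE1. Between these marker sums and the level of hsa-miR-31-5p no relation was tested.

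A list of 20 names often reported in colorectal tumours was set beside hsa-miR-31-5p, and 14 were listed. The sequences of 4 of those that lay above it, and of 2 chromosome 9 miRNAs described below, are given to show that none has its seed (capitals).
hsa-miR-21-5p: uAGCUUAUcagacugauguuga
hsa-miR-183-5p: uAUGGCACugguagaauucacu
hsa-miR-182-5p: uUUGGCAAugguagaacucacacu
hsa-miR-155-5p: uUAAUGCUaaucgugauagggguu
hsa-let-7d-5p: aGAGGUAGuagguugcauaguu
hsa-miR-204-5p: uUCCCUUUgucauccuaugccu
In the HCT116 tables hsa-miR-31-5p took places 4 to 6 of the list, and in the RPE1 tables places 2 and 3. The oncogenic hsa-miR-21-5p was above it in all 7 tables, by 92.9-fold in RPE1 5/3 12/3 and 324-fold in RPE1* 7/3, the smallest and largest ratios. In the 4 HCT116 tables hsa-miR-183-5p, of a cluster first known from sensory organs, had 3.38 to 11.3 times the mean of hsa-miR-31-5p, and 0.0889 to 0.827 times in the 3 RPE1 tables. Its cluster partner hsa-miR-182-5p had 1.58 to 2.36 times the mean of hsa-miR-31-5p in HCT116 and 0.0772 to 0.391 times in RPE1. For both, all 4 HCT116 tables lay on one side of hsa-miR-31-5p and all 3 RPE1 tables on the other. The remaining cluster member, hsa-miR-96-5p, was above it in 1 HCT116 table, HCT116 18/3 c2, as was hsa-miR-20a-5p of the growth-promoting miR-17-92 cluster.

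Beside hsa-miR-21-5p, hsa-miR-155-5p of inflammatory signalling was the only listed name above hsa-miR-31-5p in an RPE1 table. It had 1.76 times the mean of hsa-miR-31-5p in RPE1* 7/3, 0.275 times in RPE1 5/3 12/3 and 0.382 times in RPE1* 21/3. In HCT116 it was listed in 1 table, at 0.837 ppm. The colorectal hsa-miR-135b-5p stayed below hsa-miR-31-5p in all 7 tables, at 257 to 826 ppm in HCT116 and 9.32 to 20.2 in RPE1. So did hsa-miR-34a-5p, a p53 target, at 233 to 574 and 127 to 202 ppm, and hsa-miR-17-5p at 336 to 1092 and 110 to 445. Low in both cell types were hsa-miR-195-5p (0.353 to 4.89) and hsa-miR-143-5p (0.581 to 12.6 in 6 tables). The latter is the minor arm of its hairpin, and the better known 3′ arm is not among the values here. The other 3, hsa-miR-145-5p, hsa-miR-224-5p and hsa-miR-139-5p, lay between 6.94 and 265 ppm.

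**Figure D3:**
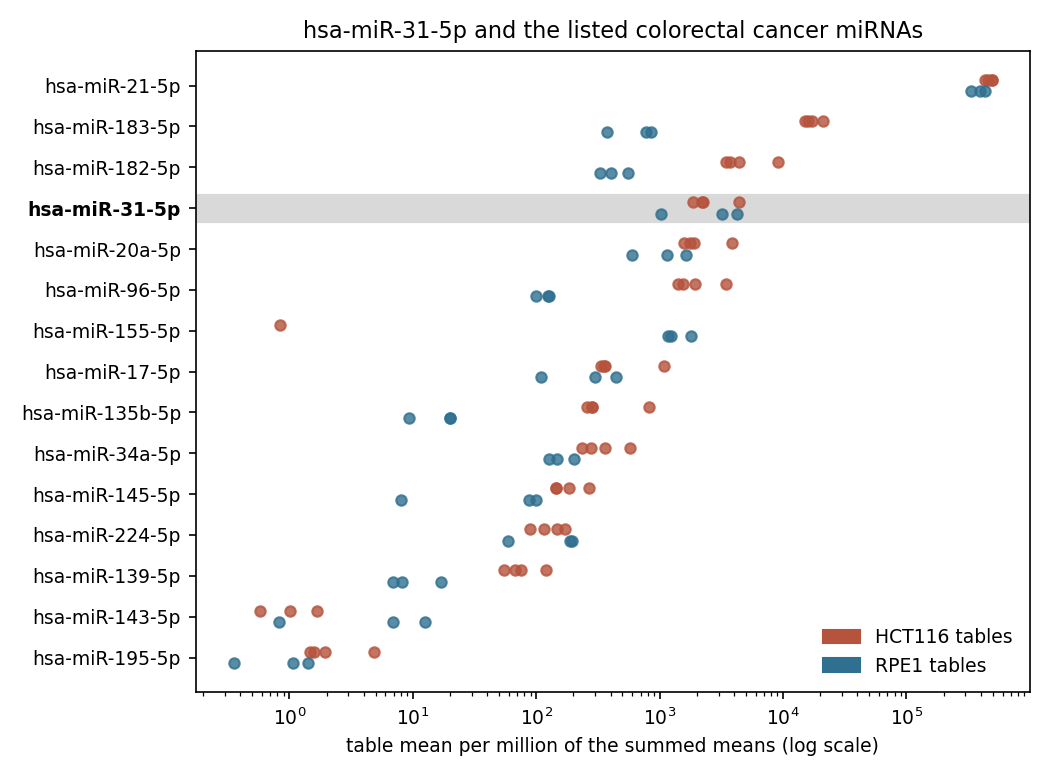
Points give the authors' mean in ppm of the summed means (log axis) of each table for hsa-miR-31-5p and the 14 listed names of the colorectal list, 1 point per table. The points of hsa-miR-31-5p overlap, from 1855 to 4427 in HCT116 and from 1028 to 4225 in RPE1. Those of hsa-miR-17-5p, hsa-miR-20a-5p, hsa-miR-224-5p and hsa-miR-143-5p overlap too. The points of all other names are apart, among them hsa-miR-183-5p, hsa-miR-182-5p and hsa-miR-155-5p, though only barely for hsa-miR-21-5p and hsa-miR-195-5p.

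The name of 439 of 509 miRNAs (86.2%) could be placed on GRCh37, and 17 of them, hsa-miR-31-5p included, had all their loci on chromosome 9. In 3 tables hsa-miR-31-5p was the most abundant of these. It made up 74.4% of their sum in RPE1 5/3 12/3, 62.4% in RPE1* 21/3 and 60.2% in HCT116 5/4. In the 3 tables on the HCT116* control it came second to hsa-let-7d-5p, a let-7 family member, with 34.3% to 38.1%. In RPE1* 7/3 it took place 3, with 24.9%. There hsa-miR-204-5p, a miRNA of pigment epithelium, had 1450 ppm and hsa-let-7d-5p had 1195, against 380 and 733 in RPE1 5/3 12/3 and 518 and 1102 in RPE1* 21/3. The sum over chromosome 9 miRNAs, hsa-miR-31-5p included, was lowest in the RPE1* 7/3 table, at 4131 ppm, and highest in HCT116 5/4, at 7349. Of these sums hsa-miR-31-5p itself was 1028 and 4427 ppm. Without it RPE1* 7/3 was not the lowest table and HCT116 5/4 not the highest.

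**Figure D4:**
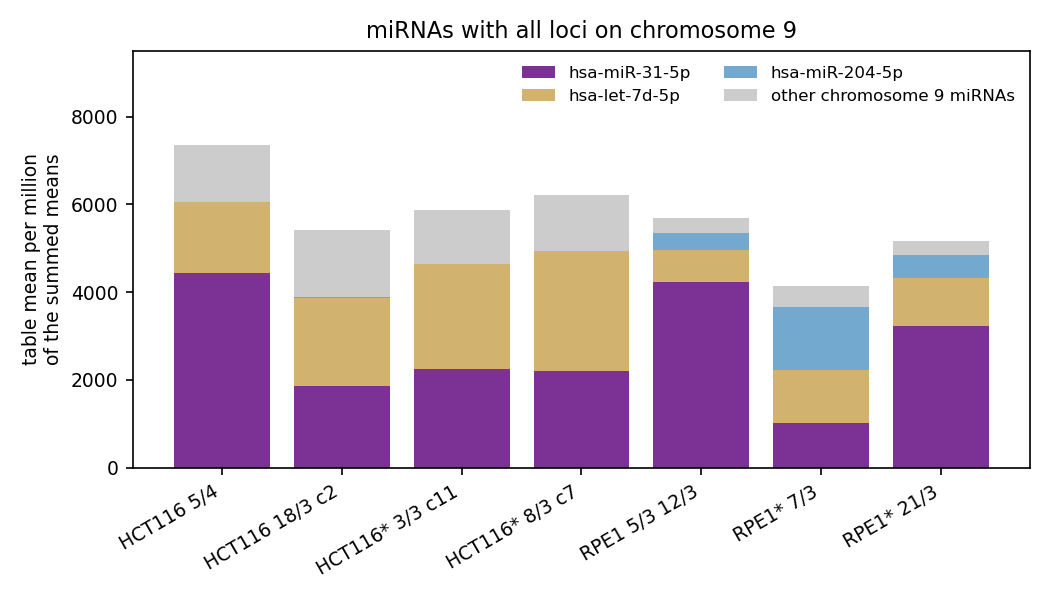
Stacked bars give the authors' means, in ppm of the summed means, of miRNAs with all loci on chromosome 9, with hsa-miR-31-5p at the base. The sums run from 4131 in RPE1* 7/3 to 7349 in HCT116 5/4, and hsa-miR-31-5p takes 24.9% of the first and 60.2% of the second.

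The miRNAs whose log2 level ppm followed that of hsa-miR-31-5p most closely over the 7 tables were hsa-miR-1246, hsa-miR-374b-5p, hsa-miR-1277-5p, hsa-miR-374a-5p and hsa-miR-4286, with a Pearson r of 0.96, 0.95, 0.94, 0.93 and 0.91. They were ranked among 165 miRNAs listed in all tables with a mean of at least 100 in at least 1, whose median r was 0.10. The 7 points share the summed means they were divided by, and 3 share control libraries. Each of the 5 was higher in the 3 tables with the batch term than in the 4 without it, as hsa-miR-374a-5p with 94.6 to 198 ppm against 14.4 to 29.2. That was largely set by their choice, since hsa-miR-31-5p splits the same way. Other ranked miRNAs, such as hsa-miR-15b-5p, did so too, and their share of the 165 was not counted. Without the 2 tables farthest from the median (RPE1* 7/3 and HCT116 5/4), 0 of these 5 stayed among the 5 closest, and their r was 0.87, 0.91, 0.90, 0.92 and 0.78. All 5 were less abundant than hsa-miR-31-5p, hsa-miR-374b-5p being the highest of them at 138 to 573 ppm.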

How the data were processed

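Per the study's methods, reads were cleaned of poor-quality ends (some libraries) and of adapters (cutadapt), aligned to hg19 and assigned to mature miRBase entries with mirdeep2. The deposited mean is a signal that the authors made with DESeq2 (version not given in the sources used here) by dividing read counts by size factors and averaging the 6 libraries of a table. For HCT116 5/4, RPE1* 21/3 and RPE1 5/3 12/3 the authors' comparison had a paired replicate term against sequencing batch effects. The 5 other columns of each table hold the authors' own comparisons (log2 fold change, its standard error, statistic, p-value and adjusted p-value) and were not used, so no line was tested against its control, although a test had been planned for counts of single libraries.

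Means were divided by the summed means of a table and given as ppm (parts per 1000000). Alternatives were the means as listed, median-of-ratios scaling over the 205 miRNAs of all tables, sums without the most abundant miRNA and sums over means of at least 10. Scaling and ranking were tested on simulated data. Positions come from GENCODE 44 on GRCh37, sequences from RefSeq (GRCh38.p14 table, whose coordinates were not used) and names from both. The member, the lists and the rule for named miRNAs (the lists, both neighbours by level, miRNAs within 1 Mb, and the 5 closest by Pearson r) were chosen with earlier results of these data known. Python 3.11.15, numpy 2.4.6, pandas 2.3.3 and matplotlib 3.10.9 were used.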

Additional observations from a re-analysis of the deposited data

Results flagged for a closer look

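Among the 4 HCT116 tables the mean of hsa-miR-31-5p in HCT116 5/4 (4427 ppm of the summed means) stood apart from the others by Dixon's criterion, with a gap of 0.849 of the range against a critical value of 0.829. Chance marks about 1 in 20 groups of independent values, a rate that does not hold here. The other 3 tables share their control libraries, so the 4 means are not independent, and hsa-miR-31-5p was chosen with its earlier results known. HCT116 5/4 is also the only HCT116 table whose comparison had the term for sequencing batches. The gap was 0.874 of the range with median-of-ratios scaling, but 0.767 without the most abundant miRNA and 0.460 on the means as listed, both short of the critical value.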

How the results depend on the processing

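Of 28 levels against the median table under 4 other scalings, 24 moved by less than 1.5-fold. That count overstates how stable the levels are. Sums over means of at least 10 barely change a level (4427.9 against 4427.4 ppm in HCT116 5/4), and the median table itself is fixed at 0. On the means as listed, HCT116 5/4 lay at 0.29 in log2 in place of 0.98. With median-of-ratios scaling RPE1 5/3 12/3 lay at 1.84 in place of 0.91, RPE1* 21/3 at 1.48 in place of 0.52 and RPE1* 7/3, then the median table, at 0 in place of -1.13. The log2 ratio of the median RPE1 over the median HCT116 table was then 1.57 in place of 0.54. The cause was not tested. Of the 5 miRNAs closest to hsa-miR-31-5p, 0 remained among the 5 closest by Spearman correlation, 2 with median-of-ratios scaling and 0 without 2 tables, an alternative chosen after seeing the data. The Spearman count rests on a tie broken by name. At a correlation of 0.93, hsa-miR-374a-5p and hsa-miR-374b-5p equalled hsa-miR-140-5p and hsa-miR-26b-5p, which were placed before them. Without a limit on the mean, the share of miRNAs below hsa-miR-31-5p was 92.1% to 96.0% in place of 88.7% to 94.9%. Shares this high could not have risen by 1.5-fold, so that criterion says nothing about them. Alternatives that need counts of single libraries (another normalization, leaving out replicates) or the authors' comparison columns were not run. No paired analysis was possible because the columns used hold 1 mean per table and carry no replicate numbers. Depth per library is unknown, so how precise a level is cannot be given.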
